A study of Homo sapiens with 6 samples.

Results

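The genes described here are 37 genes for integrin chains and for the cytoplasmic adaptors of focal adhesions: 13 alpha chains, 8 beta chains and 16 adaptors. They were taken by gene symbol from a table of 38637 genes, and all 37 were found. Gene expression was profiled by RNA sequencing of poly(A) RNA from OVCAR8, a wild-type human ovarian cancer cell line, so that both groups are cultures of 1 cell line. The cells had been exposed for 72 h either to DMSO, the solvent control, with 3 samples, or to pladienolide B at 2 nM, with 3 samples. Pladienolide B is a small molecule that inhibits SF3B1, a subunit of the splicing factor that recognises the branch point of introns, and the comparison asks how the transcripts of the adhesion machinery differ after SF3B1 inhibition. The labels do not say that the samples came from separate cultures, so the p-values measure the spread between these samples, which may be technical.

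Integrins are cell surface receptors made of 1 alpha and 1 beta chain, which bind matrix proteins outside the cell and, through their tails, a layer of adaptor proteins that links them to actin. The alpha chain largely sets which ligand is bound: ITGAV, ITGA5 and ITGA8 pair into receptors for the RGD motif of fibronectin and vitronectin, ITGA1, ITGA2, ITGA10 and ITGA11 into collagen receptors, and ITGA3, ITGA6 and ITGA7 into laminin receptors. In ovarian cancer these receptors carry the attachment of cells to the mesothelial lining of the peritoneum and to fibronectin-rich matrix. Kindlins activate integrins, ILK, PINCH and parvin form a joint complex at the beta tail, and FAK and paxillin pass the signal on.

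The values are adjusted reads, which are read counts per gene that the authors scaled to a common library size, and the reads behind them numbered 22621338 to 26130882 per sample. DMSO replicate 2 stood apart from the other DMSO samples (chi-square per degree of freedom 7.31 and 7.24, against 1.98 between replicates 1 and 3), and without it the same 19 members were called as with it. The epithelial and ovarian markers PAX8 (4108 adjusted reads on average in DMSO), KRT8, KRT18, KRT7 and MSLN were abundant, while WT1, MUC16, KRT19 and CDH1 averaged 16.4 to 23.8 in DMSO. Of 7 leukocyte markers, PTPRC, CD3E and LYZ had at most 2.07 adjusted reads in any sample, and CD68, which is also expressed outside the leukocyte lineage, was the most abundant with 1146 on average in DMSO. SF3B1, the drug target, rose from 10086 ± 299.9 to 12509 ± 333 adjusted reads (mean ± SD, n = 3), a log2 fold change of 0.31 (SE 0.04, adjusted p = 7.52e-06).

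Of the 37 members, 32 passed the filter on low values and 19 of these were called at an adjusted p below 0.05, 7 higher and 12 lower in pladienolide B. Over all 16178 genes tested, 47.6% were called, 22.4% higher and 25.2% lower, so that a call by itself sets no member apart. The groups did not overlap for 20 of the 32 members tested, and the same held for 55.3% of all genes tested (26.4% higher and 28.8% lower). Most shifts were small: the median size of the log2 fold change was 0.19 among the members tested and 0.23 among all genes tested, and 6 members were called with a log2 fold change of at least 0.5 in size, as were 14.7% of all genes tested. These 6 were ITGAV, ITGB8 and ITGA1, which fell, and ITGA2, TNS1 and ITGA7, which rose, and ITGA4 lay just under that size. By class, 6 of 10 alpha chains tested were called (2 higher, 4 lower), 4 of 6 beta chains (1 higher, 3 lower) and 9 of 16 adaptors (4 higher, 5 lower). The median log2 fold change was 0.04, -0.02 and 0.001 in these classes and -0.004 over all genes tested. In a bulk culture a lower value can come from fewer cells that carry a transcript or from less of it per cell, and these cannot be told apart here.

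**Figure D1:**
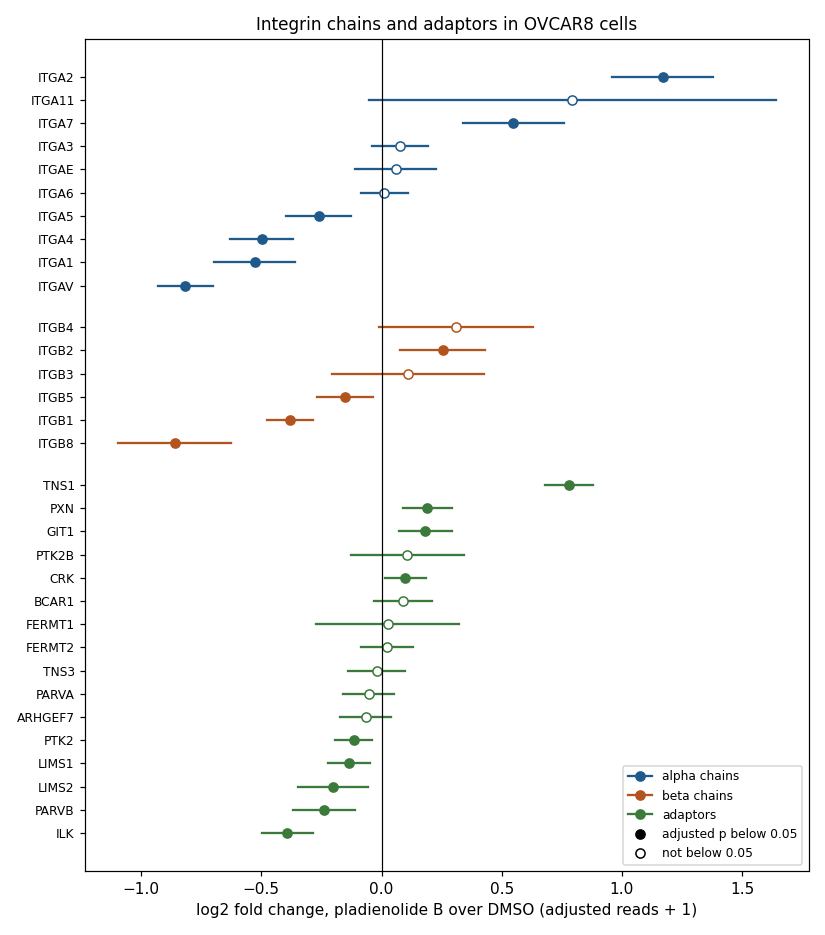
Log2 fold change (x axis, pladienolide B against DMSO, on adjusted reads + 1) with its 95% confidence interval from limma for the 32 members that passed the filter, alpha chains, beta chains and adaptors from top to bottom; filled points have an adjusted p below 0.05. ITGA2 lies farthest to the right at 1.17 and ITGB8 farthest to the left at -0.86, while most adaptors lie within 0.25 of 0.

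Of the alpha chains that bind fibronectin, ITGAV, ITGA4 and ITGA5 were called lower, as were 25.2% of all genes tested. ITGAV (chr2:186590056-186680901, plus strand), which pairs with several beta chains and binds vitronectin, fibronectin and latent TGF-beta, had 6124, 6115 and 6238 adjusted reads in the DMSO replicates and 3338, 3886 and 3295 in the pladienolide B replicates. All 3 treated samples lay below the DMSO samples, whose SD was 68.9. Its log2 fold change was -0.82 (SE 0.05, adjusted p = 3.46e-09), which left 56.9% of the DMSO level. ITGA5 (chr12:54395261-54419266, minus strand), the alpha chain of the classical fibronectin receptor, had 4929, 4209 and 5085 adjusted reads in the DMSO replicates and 3933, 4242 and 3664 in the pladienolide B replicates. It was called lower at -0.26 (SE 0.06, adjusted p = 0.0028), but the groups overlapped, since pladienolide B replicate 2 lay above DMSO replicate 2, and the call was lost without a variance trend (adjusted p = 0.0778). ITGA4 (chr2:181457205-181538940, plus strand), which binds VCAM1 and an alternatively spliced segment of fibronectin, had 972, 1028 and 926 adjusted reads in the DMSO replicates and 716, 676 and 676 in the pladienolide B replicates. Its groups did not overlap and its log2 fold change was -0.50 (SE 0.06, adjusted p = 5.24e-06). CERKL, on the opposite strand, overlaps ITGA4 and had 15.7% of its adjusted reads over all 6 samples. The log2 fold change of CERKL was -0.76 (SE 0.15, adjusted p = 0.000395). The strand setting of the counting is not given in the sources used here. ITGA8, the remaining RGD-binding alpha chain, had 0, 0 and 1 reads in DMSO and 1, 1 and 1 in pladienolide B, and ITGA9, a relative of ITGA4, had 6, 4 and 11 against 2, 3 and 8. Neither passed the filter, and differences in them were not detectable at this depth.

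ITGB8 (chr7:20329819-20415754, plus strand), a partner of ITGAV in a receptor that activates latent TGF-beta, had the largest fall among the members, with 491, 403 and 485 adjusted reads in the DMSO replicates and 228, 233 and 301 in the pladienolide B replicates. Every treated sample lay below every control, and the log2 fold change was -0.86 (SE 0.11, adjusted p = 7.63e-06), or 55.2% of the DMSO level. ITGB6, the other beta chain known for latent TGF-beta, had 6, 1 and 6 reads in DMSO and 2, 2 and 2 in pladienolide B and was not tested. The stretch from 250 bases before to 50 after a RefSeq start site is shown for ITGAV and for ITGB8, since these partner chains had the largest falls. It lies at chr2:186589806-186590105 for ITGAV and at chr7:20330650-20330949 for ITGB8 (GRCh38.p14, plus strand for both genes, 5′ to 3′). For ITGB8 that start lies inside the gene as the table places it. Capitals mark matches to the motifs named further on.
ITGAV: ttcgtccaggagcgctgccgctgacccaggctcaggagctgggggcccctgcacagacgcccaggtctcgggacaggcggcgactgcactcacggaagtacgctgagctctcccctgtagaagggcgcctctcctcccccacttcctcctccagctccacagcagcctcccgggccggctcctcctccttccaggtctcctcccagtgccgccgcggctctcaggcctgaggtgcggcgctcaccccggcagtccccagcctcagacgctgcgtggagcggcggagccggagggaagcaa
ITGB8: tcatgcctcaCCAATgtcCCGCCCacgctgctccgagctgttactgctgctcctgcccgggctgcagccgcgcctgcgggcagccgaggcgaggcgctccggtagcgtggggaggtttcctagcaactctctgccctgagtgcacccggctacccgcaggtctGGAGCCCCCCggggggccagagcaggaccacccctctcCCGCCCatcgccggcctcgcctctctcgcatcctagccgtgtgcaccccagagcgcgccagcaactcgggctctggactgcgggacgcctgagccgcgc
The ITGAV stretch shown held 70.7% G and C and the ITGB8 stretch 71.7%, both above the median of all such stretches, 58.7%. The ITGAV stretch shown held no motif searched, and the ITGB8 stretch held 2 GC boxes, 1 CCAAT box and 1 NF-kB site. ITGAV has a further RefSeq start site, whose stretch at chr2:186599955-186600254 held 41.3% G and C, below that median, and no motif searched.

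ITGB1 (chr10:32900318-32958230, minus strand), the common beta chain that pairs with most of the alpha chains above, had 22940.0, 25108 and 23591 adjusted reads in the DMSO replicates and 18362, 19177 and 17469 in the pladienolide B replicates. The lowest control lay above the highest treated sample, and the log2 fold change was -0.38 (SE 0.05, adjusted p = 3.25e-06), or 76.8% of the DMSO level. ITGB5, which joins ITGAV in a vitronectin receptor, had 2079, 1947 and 2188 adjusted reads in the DMSO replicates and 1828, 1784 and 1974 in the pladienolide B replicates. It was called lower at -0.15 (SE 0.05, adjusted p = 0.0296), with groups that overlapped. ITGB2, the beta chain of leukocyte integrins, had 289.9, 298 and 296 adjusted reads in the DMSO replicates and 350.2, 342 and 364 in the pladienolide B replicates. It rose by 0.25 (SE 0.08, adjusted p = 0.0189) on the log2 scale and the groups did not overlap. ITGB3, the second vitronectin-receptor partner of ITGAV and a platelet integrin chain, had a log2 fold change of 0.11 with a 95% interval of -0.21 to 0.43, and was not called. ITGB4, the beta chain of the hemidesmosome, had 156, 141 and 152 adjusted reads in the DMSO replicates and 202, 139.8 and 227 in the pladienolide B replicates. Pladienolide B replicate 2 lay just below the controls while the other two treated samples lay above them, and the log2 fold change was 0.31 (SE 0.15, adjusted p = 0.104). Without that replicate it was 0.51, with an adjusted p of 0.00568. GALK1, on the opposite strand, overlaps ITGB4 and had 495% of its adjusted reads over all 6 samples. The log2 fold change of GALK1 was -0.26 (adjusted p = 0.00788). ITGB7, a leukocyte beta chain, had 1, 1 and 5 reads in DMSO and 7, 6 and 3 in pladienolide B and was not tested. ITGB2-AS1, antisense to ITGB2, had 12.4% of its adjusted reads over all 6 samples. The number of beta chains called rested on DMSO replicate 1: without it only ITGB1 and ITGB8 were called, with ITGB5 at an adjusted p of 0.0713 and ITGB2 at 0.0566. ITGB2 also lost its call without pladienolide B replicate 3 (adjusted p of 0.0661), and ITGB5 lost it without DMSO replicate 3 (0.15), pladienolide B replicate 1 (0.0964) or pladienolide B replicate 2 (0.131).

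Of the collagen-binding alpha chains, ITGA1 fell and ITGA2 rose, while ITGA11 was not called and ITGA10 was not tested. ITGA1 (chr5:52787916-52959209), which favours basement membrane collagen, had 766, 701 and 688 adjusted reads in the DMSO replicates and 442, 542 and 513 in the pladienolide B replicates. It fell by 0.53 on the log2 scale (SE 0.08, adjusted p = 4.25e-05), with no overlap between groups. ITGA2 (chr5:52989352-53094779), which favours fibrillar collagen, had 221, 214 and 189.7 adjusted reads in the DMSO replicates and 431, 528 and 453 in the pladienolide B replicates. Every treated sample lay above every control, the mean was 2.26-fold higher and the log2 fold change was 1.17 (SE 0.10, adjusted p = 7.04e-08), the largest rise among the members. Both genes lie on the plus strand of chromosome 5, with 30142 bases between the end of ITGA1 and the start of ITGA2. PELO lies within ITGA1 on the same strand and had 219% of its adjusted reads over all 6 samples. The log2 fold change of PELO was -0.26 (SE 0.06, adjusted p = 0.0012). ITGA10 had 1, 4 and 6 reads in DMSO and 4, 7 and 0 in pladienolide B. ITGA11 had 6.53, 9.07 and 10.4 adjusted reads in the DMSO replicates and 22.8, 10.8 and 15.03 in the pladienolide B replicates, and passed the filter only through the treated group. Its groups did not overlap, and its log2 fold change was 0.79 (SE 0.40, adjusted p = 0.114).

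The same stretches around the RefSeq start sites of ITGA1, at chr5:52787666-52787965, and ITGA2, at chr5:52989102-52989401, are shown because these neighbouring genes moved apart (GRCh38.p14, plus strand, 5′ to 3′, capitals as before).
ITGA1: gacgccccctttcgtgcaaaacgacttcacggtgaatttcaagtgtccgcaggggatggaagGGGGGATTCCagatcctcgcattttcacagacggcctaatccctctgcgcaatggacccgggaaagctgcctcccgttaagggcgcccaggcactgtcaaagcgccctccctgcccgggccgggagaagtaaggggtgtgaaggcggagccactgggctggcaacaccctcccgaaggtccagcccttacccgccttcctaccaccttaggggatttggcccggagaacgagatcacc
ITGA2: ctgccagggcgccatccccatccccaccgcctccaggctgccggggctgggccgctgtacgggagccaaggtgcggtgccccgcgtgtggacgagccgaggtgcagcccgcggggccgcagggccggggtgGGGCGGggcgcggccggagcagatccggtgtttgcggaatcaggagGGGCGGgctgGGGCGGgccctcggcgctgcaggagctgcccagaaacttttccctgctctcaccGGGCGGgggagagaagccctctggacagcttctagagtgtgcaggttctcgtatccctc
The ITGA2 stretch held 72.7% G and C and 4 GC boxes, whereas the ITGA1 stretch held 61.7% and 1 NF-kB site but no GC box. The motifs searched on both strands were the GC box GGGCGG, the CCAAT box CCAAT, the AP-1 site TGANTCA, the TATA box TATAAA, the TEAD site GGAATG and the NF-kB consensus site. No matches overlapped one another in the 4 stretches printed. Of all 35116 stretches, 45.0% held a GC box and 34.6% a CCAAT box, and of the 55 stretches of the 27 members that were matched, 27 and 11 did. The NF-kB site was found in 11.3% of all stretches and in 14 of the 55, the AP-1 site in 7.71% and in 4, the TATA box in 11.5% and in 4, and the TEAD site in 4928 of 35116 and in 6 of the 55. Several members have more than 1 start site, and their stretches can share bases. A match is a match of letters and was not tested for binding.

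The laminin-binding chains ITGA3 and ITGA6, the most abundant alpha chains of these cells, did not pass the threshold. ITGA3 had 14453, 14859 and 15118 adjusted reads in the DMSO replicates and 15303, 14297 and 17388 in the pladienolide B replicates, a log2 fold change of 0.08 (SE 0.06, adjusted p = 0.274). ITGA6, which pairs with ITGB1 or ITGB4, had 8916, 9509.5 and 9195 adjusted reads in the DMSO replicates and 9404, 9775 and 8697 in the pladienolide B replicates, and its 95% interval ran from -0.09 to 0.11 on the log2 scale. ITGA7, the muscle laminin receptor chain, had 211, 199 and 211 adjusted reads in the DMSO replicates and 307, 275 and 329 in the pladienolide B replicates. It rose by 0.55 (SE 0.10, adjusted p = 0.000245) on the log2 scale with no overlap between groups. METTL7B overlaps ITGA7 on the opposite strand and had 122% of its adjusted reads over all 6 samples. The log2 fold change of METTL7B was 0.52 (SE 0.09, adjusted p = 0.000139). BLOC1S1-RDH5, also on the opposite strand, overlaps ITGA7 and had 79.2% of the adjusted reads of ITGA7 over all 6 samples. The log2 fold change of BLOC1S1-RDH5 was -0.25 (SE 0.12, adjusted p = 0.114), and it was not called. Reads of ITGA7 and of these overlapping genes cannot be told apart if strand was not used. ITGAE, which binds E-cadherin, had a log2 fold change of 0.06 (SE 0.08, adjusted p = 0.576). It shares sequence positions with NCBP3, on the same strand, and HASPIN, on the opposite strand. These had 439% and 93.2% of the adjusted reads of ITGAE over all 6 samples. The log2 fold change of NCBP3 was 0.42 (SE 0.04, adjusted p = 6e-07) and that of HASPIN 0.02 (SE 0.08, adjusted p = 0.835).

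To compare levels between genes, adjusted reads were divided by the length of the canonical transcript in kilobases. The same length was used for both groups, and whether the transcript forms of a gene differed between the groups was not tested. On this scale ITGB1 averaged 6394 ± 298 adjusted reads per kb in DMSO and 4909 ± 229 in pladienolide B (SD, n = 3) and made up 90.5% ± 0.78 and 88.6% ± 1.0 of the sum over the 8 beta chains. The next beta chains were ITGB5, with 466 adjusted reads per kb in DMSO, and ITGB2, with 105, and their ranges did not overlap. Among alpha chains the order in DMSO was ITGA3 (3029 adjusted reads per kb), ITGA6 (1583), ITGA5 (1116), ITGAV (875), ITGAE (174), ITGA4 (144), ITGA1 (66.9), ITGA7 (50.1) and ITGA2 (26.6). The ranges of the 3 DMSO samples did not overlap between any neighbours in this order. In pladienolide B ITGA2, with 59.98 adjusted reads per kb, ranked above ITGA1, with 46.5, again without overlap. The share of ITGAV in the sum of the alpha chains went from 12.4% ± 0.06 to 7.45% ± 0.79, that of ITGA3 from 42.9% ± 0.50 to 47.8% ± 3.9 and that of ITGA2 from 0.376% ± 0.035 to 0.897% ± 0.10. The sum of the alpha chains was 7066 ± 107 adjusted reads per kb in DMSO and 6693 ± 142 in pladienolide B, and the sum of the beta chains was 7063 ± 272 and 5538 ± 196. The ratio of the alpha sum to the beta sum was 1.02, 0.955 and 1.02 in the DMSO replicates and 1.19, 1.15 and 1.28 in the pladienolide B replicates, without overlap. These sums were not tested, and they count transcripts, not receptors at the surface.

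**Figure D2:**
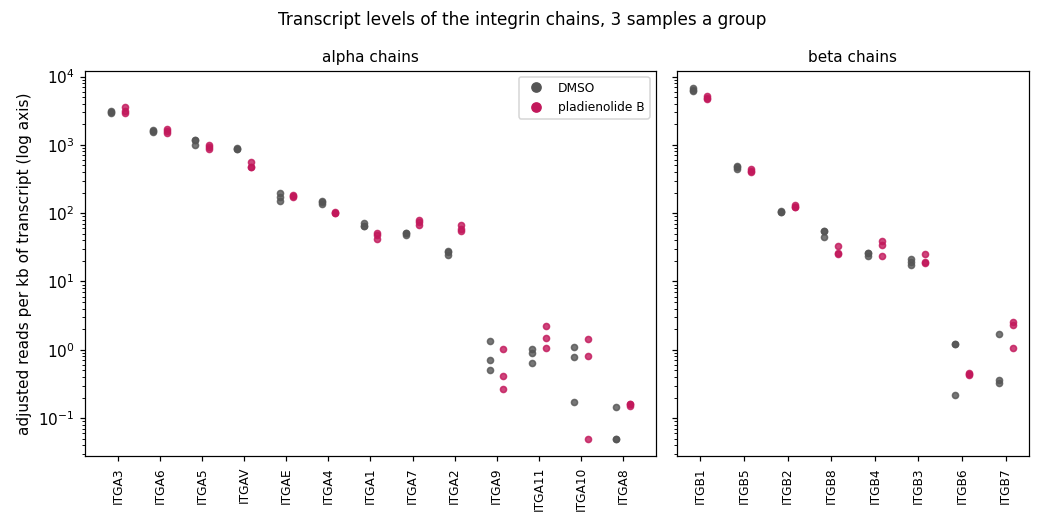
Adjusted reads per kb of canonical transcript (y axis, log scale) for the 13 alpha chains and 8 beta chains, ordered by the DMSO mean, 1 point per sample; values under 0.05 are drawn at 0.05. ITGB1 lies above all other chains in both groups, and the treated points of ITGAV, ITGB8, ITGA4 and ITGA1 lie below the controls while those of ITGA2 lie above them.

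Among the adaptors, the genes for ILK, for both PINCH proteins and for 1 of the 2 parvins among the members fell. Each fell by a log2 fold change under 0.5 in size, and 25.2% of all genes tested were called lower. ILK, the pseudokinase at the centre of this complex, had 2819, 2767 and 2839 adjusted reads in the DMSO replicates and 1996, 2194 and 2238 in the pladienolide B replicates. The groups did not overlap and the log2 fold change was -0.39 (SE 0.05, adjusted p = 6.05e-06), the largest fall among the adaptors. TAF10, on the opposite strand, overlaps ILK and had 104% of its adjusted reads over all 6 samples. The log2 fold change of TAF10 was -0.26 (SE 0.05, adjusted p = 0.000139). LIMS1 and LIMS2 encode the PINCH proteins, which dock on ILK. LIMS1 had a log2 fold change of -0.14 (SE 0.04, adjusted p = 0.0119) and LIMS2 one of -0.20 (SE 0.07, adjusted p = 0.0241), both without overlap between groups. LIMS1 has close copies in the genome, and of these LIMS3 and LIMS4 averaged 8.74 and 20.4 adjusted reads in DMSO, so that its value is uncertain to the extent that reads were shared. Of the parvins, which tie ILK to actin, PARVB had 824, 891 and 852 adjusted reads in the DMSO replicates and 724, 746 and 704 in the pladienolide B replicates and fell by 0.24 on the log2 scale (SE 0.06, adjusted p = 0.00389). PARVG, a neighbour on the same strand that overlaps PARVB, had 19.0% of the adjusted reads of PARVB over all 6 samples. GPR17, opposite LIMS2, had 5.10% of those of LIMS2, also over all 6 samples. GPR17 averaged 13.5 adjusted reads in DMSO and 49.1 in the treated samples. It rose by 1.75 on the log2 scale (SE 0.29, adjusted p = 0.000115), while LIMS2 fell. PARVA was not called, with a log2 fold change of -0.05 (SE 0.05, adjusted p = 0.408).

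Of FAK and its partners, PTK2 fell, and PXN, GIT1 and CRK were called higher. PTK2, which encodes FAK, the tyrosine kinase activated at adhesions, had 8329, 8379.6 and 8294 adjusted reads in the DMSO replicates and 7639.5, 7710.2 and 7713 in the pladienolide B replicates. The groups did not overlap and the log2 fold change was -0.12 (SE 0.04, adjusted p = 0.0163). Its relative PTK2B had a log2 fold change of 0.11 (adjusted p = 0.459). PXN, the scaffold paxillin, had 10023, 8971 and 10077 adjusted reads in the DMSO replicates and 10733, 10888 and 11519 in the pladienolide B replicates, and rose by 0.19 (SE 0.05, adjusted p = 0.00347) on the log2 scale without overlap. GIT1, which joins paxillin to the exchange factor ARHGEF7, rose by 0.18 (SE 0.05, adjusted p = 0.00846) on the log2 scale, and ARHGEF7 itself had -0.07 (SE 0.05, adjusted p = 0.292). CRK, an adaptor that binds phosphorylated paxillin and BCAR1, was called higher at 0.10 (SE 0.04, adjusted p = 0.0485), and BCAR1 was not called, at 0.09 (SE 0.06, adjusted p = 0.208).

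TNS1, a tensin that links integrin tails to actin at mature fibrillar adhesions, had the largest change among the adaptors, with 1311, 1264 and 1326 adjusted reads in the DMSO replicates and 2224, 2236 and 2245 in the pladienolide B replicates. The treated samples lay between 2224 and 2245, all above the controls, and the log2 fold change was 0.78 (SE 0.05, adjusted p = 1.25e-09). TNS3, a tensin found in the same structures, had 1262, 1183 and 1318 adjusted reads in the DMSO replicates and 1196, 1287 and 1226 in the pladienolide B replicates, and its 95% interval ran from -0.14 to 0.10 on the log2 scale. The kindlins did not pass the threshold: FERMT2 had a log2 fold change of 0.02 (SE 0.05, adjusted p = 0.76) and FERMT1 one of 0.03 (SE 0.14, adjusted p = 0.9). The number of adaptors called rested in part on single samples, with 5 called without DMSO replicate 1 and 5 without pladienolide B replicate 1, against 9 with all samples. The adaptors no longer called in either of these fits included PTK2 (adjusted p of 0.052 and 0.0663), LIMS1 (0.07 and 0.0645), LIMS2 (0.128 and 0.0904) and CRK (0.144 and 0.204). CRK also lost its call without DMSO replicate 3 (0.123) or pladienolide B replicate 2 (0.0967), and LIMS2 without pladienolide B replicate 2 (0.0548). Without a variance trend 5 adaptors were called. The calls lost in that fit were those of PXN (adjusted p of 0.0666), PTK2 (0.0626), LIMS1 (0.0636) and CRK (0.131).

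**Figure D3:**
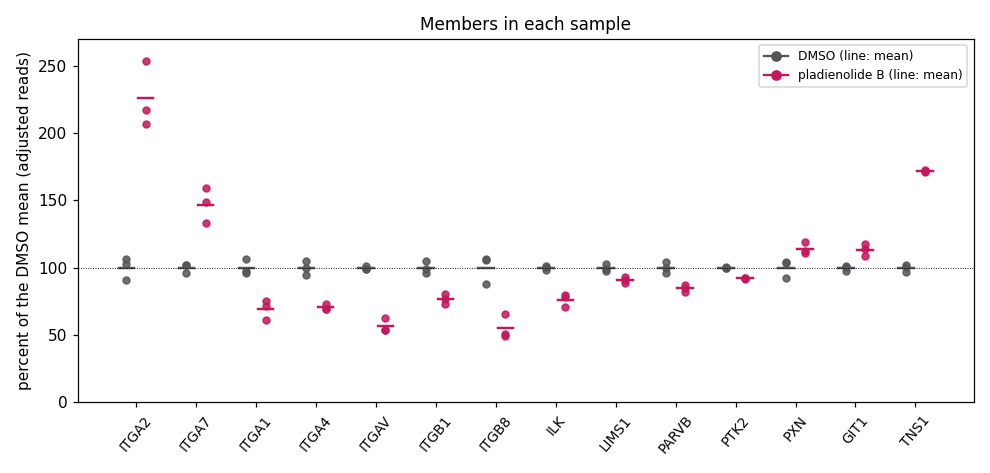
Adjusted reads of 14 members in each of the 6 samples as a percentage of the DMSO mean of the same gene (y axis), with the mean of each group as a line. All 14 were chosen from the members called whose groups did not overlap. Members that were not called, and ITGA5 and ITGB5, which were called with overlapping groups, are not drawn. ITGA2 and TNS1 lie above the controls in every treated sample, ITGAV and ITGB8 lie farthest below, and ILK, LIMS1, PARVB and PTK2 show smaller falls with groups that do not overlap.

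The ratio between related members was then compared in each sample, which depends little on library scaling. With 3 samples against 3, the exact permutation test (two-sided) cannot give a p below 0.1, and over the 9 pairs tested that value becomes 0.15 after Benjamini-Hochberg adjustment. The log2 ratio of ITGA1 to ITGA2 was 1.79, 1.71 and 1.85 in DMSO and 0.04, 0.04 and 0.18 in pladienolide B, a difference of -1.70 (exact permutation p = 0.1). The groups stood far apart against their spread (SD 0.07 in DMSO and 0.08 in pladienolide B), which follows from the opposite moves of both genes. The log2 ratio of ITGA5 to ITGAV was -0.31, -0.54 and -0.29 in DMSO and 0.24, 0.13 and 0.15 in pladienolide B, a difference of 0.55 (exact permutation p = 0.1), and was higher in every treated sample than in every control. The log2 ratio of TNS1 to TNS3 was 0.06, 0.09 and 0.01 in DMSO and 0.89, 0.80 and 0.87 in pladienolide B, a difference of 0.80 (exact permutation p = 0.1). The groups did not overlap either for PTK2 over PTK2B (a difference of -0.22), PARVA over PARVB (0.19) and LIMS1 over LIMS2 (0.06). They overlapped for ITGA3 over ITGA6, ITGB3 over ITGB5 and FERMT1 over FERMT2. ITGB6 and ITGB8 could not be set against each other because ITGB6 had too few reads.

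**Figure D4:**
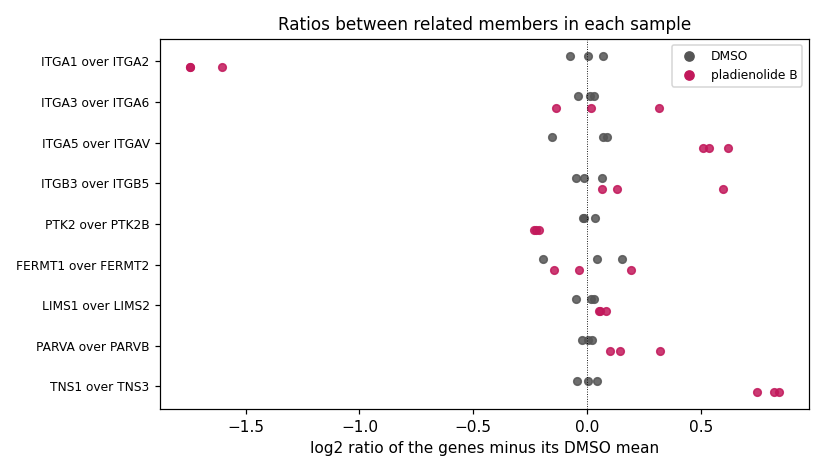
Log2 ratio between the adjusted reads of 9 pairs of related members in each sample, minus the DMSO mean of the pair (x axis), with 1 point per sample. ITGA1 over ITGA2 lies lowest in pladienolide B, with a mean difference of -1.70, and TNS1 over TNS3 and ITGA5 over ITGAV lie highest, at 0.80 and 0.55.

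Of 62 further genes of focal adhesions, 59 were tested and 33 called (55.9%, against 47.6% of all genes tested), 19 higher and 14 lower (22.4% and 25.2% of all genes tested). Without a variance trend 21 of them were called. FLNA, which encodes filamin A, an actin crosslinker that also binds beta tails, had the largest fall, from 41240.4 ± 975 to 20182 ± 718 adjusted reads, a log2 fold change of -1.03 (SE 0.04, adjusted p = 1.19e-11). DOCK1, an exchange factor for RAC1 downstream of CRK, had -0.86 (SE 0.05, adjusted p = 3.62e-10). Smaller falls were those of CD151 (-0.36), a tetraspanin partner of laminin-binding integrins, RAPGEF1 (-0.34) and CRKL (-0.29), which act together in the activation of RAP1. FERMT3, the kindlin of blood cells, had 49.7, 15.2 and 13.9 adjusted reads in the DMSO replicates and 52.2, 60.8 and 59.1 in the pladienolide B replicates and rose by 1.34 (SE 0.36, adjusted p = 0.00518) on the log2 scale, with DMSO replicate 1 close to the treated samples. With 1 sample left out the value for FERMT3 lay between 1.03 and 1.91, and without a variance trend its call was lost (adjusted p = 0.0755). TNS2 (0.67), ASAP1 (0.46) and NEDD9 (0.44) rose as well; TNS2 is a tensin like TNS1, and NEDD9 is a relative of BCAR1. Of the talins, which bind beta tails directly, TLN1 had a log2 fold change of -0.19 (SE 0.04, adjusted p = 0.000883) and TLN2 one of 0.30 (SE 0.08, adjusted p = 0.00388). The call of TLN2 was lost without a variance trend (adjusted p = 0.0506), and the difference between the talins was not tested. ZYX, which encodes the actin-associated protein zyxin, rose by 0.36 (SE 0.04, adjusted p = 1.27e-06) on the log2 scale. VCL, which encodes vinculin, was not called, at 0.04 (SE 0.04, adjusted p = 0.418).

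Of 34 integrin ligands, 29 were tested and 22 called (75.9%, against 47.6% of all genes tested), 7 higher and 15 lower (22.4% and 25.2% of all genes tested). FN1, which encodes fibronectin, the ligand of ITGA5, ITGAV and ITGA4, had 121575, 113150.0 and 118990.0 adjusted reads in the DMSO replicates and 49232, 61257 and 53215 in the pladienolide B replicates. All treated samples lay below all controls, and the log2 fold change was -1.12 (SE 0.06, adjusted p = 4.95e-10). NPNT, which encodes nephronectin, had 32.9, 30.3 and 36.9 adjusted reads in the DMSO replicates and 10.4, 16.9 and 7.02 in the pladienolide B replicates, a log2 fold change of -1.54 (SE 0.34, adjusted p = 0.00121), and passed the filter only through the DMSO group, where it was high. COL6A2 (-1.15) and COL6A1 (-0.82) for collagen VI, and LAMA5 (-1.01), a laminin chain of basement membranes, had the other large falls. LAMA4, a laminin chain, had 3.73, 6.04 and 4.72 adjusted reads in the DMSO replicates and 19.8, 22.4 and 22.0 in the pladienolide B replicates, a log2 fold change of 1.96 (SE 0.39, adjusted p = 0.000552), and passed the filter only through the treated group, where it was high. LAMB3 (0.95), also a laminin chain, rose, as did the matricellular CCN2 (0.70), CDH1 (0.67) and EDIL3 (0.35), an RGD ligand. The calls of CDH1 and EDIL3 rested on single samples: CDH1 lost its call without DMSO replicate 1 or any 1 of the 3 treated samples, and EDIL3 without any 1 sample other than DMSO replicate 2, with adjusted p-values up to 0.102 and 0.172. VTN, which encodes vitronectin, had at most 4.79 adjusted reads in any sample and was not tested. Of 5 alpha chains of leukocytes and platelets, 4 were tested and 3 called, against 47.6% of all genes tested. Of these, 1 was higher and 2 lower (22.4% and 25.2% of all genes tested). ITGA2B had -0.85 (SE 0.10, adjusted p = 4.19e-06) and ITGAX 1.07 (SE 0.21, adjusted p = 0.000414). ITGAM, at -0.99 (SE 0.33, adjusted p = 0.021), had few reads, with 19, 31 and 34 in DMSO and 11, 11 and 15 in pladienolide B. ITGAD was not called and ITGAL had too few reads to test. With 1 sample left out, 2 to 4 of these alpha chains were called. The count was 2 without DMSO replicate 2, DMSO replicate 3, pladienolide B replicate 1 or pladienolide B replicate 2.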

How the data were processed

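Poly(A) RNA sequencing of OVCAR8 cells after DMSO or pladienolide B (3 samples each) was used. Per the methods, reads were trimmed and aligned to hg38, whereas the submitters' processing notes name hg19, HISAT2, HTSeq 0.12.4 and DESeq2; gene positions in the table overlapped those of GRCh38.p14 for 99.85% of 35926 matched symbols. The authors deposited 1 signal value per gene and sample, scaled to a common library size (edgeR's quantile-adjusted counts, common dispersion 0.0027). Inverting the adjustment returned whole reads within 0.02 for 100% of 96432 values of 10 or more. A log2 fold change, p-value and q-value per gene that the authors also deposited were not used.

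Genes were kept with edgeR's filterByExpr (at least 10 in 3 samples and 15 in total), and limma 3.58.1 with a variance trend was fitted to log2(value + 1) of all 6 samples, two-sided, with Benjamini-Hochberg adjustment over 16178 genes and a threshold of 0.05. The pseudocount of 1 makes fold changes of low genes smaller. Alternatives were other filters, a pseudocount of 0.1, a replicate block, no variance trend, leaving out each sample, and edgeR 4.0.16 (TMM, RLE or upper-quartile factors) and DESeq2 1.42.0 on the recovered reads, under R 4.3.3. The scripts were tested on simulated data. Transcript lengths were taken from GENCODE's canonical transcripts and sequences from RefSeq (GRCh38.p14), which matched 27 of 37 members. The members, the gene lists and the pairs were chosen with earlier results of these data known. All members are accounted for; of the further focal adhesion genes and ligands, those named are called and show no overlap between groups, with 5 rises and 5 falls of the greatest size per list, plus TLN1, TLN2, VCL, ZYX, FN1 and VTN, genes that overlap a named member, and SF3B1. One gene that this rule names is not reported here.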

Additional observations from a re-analysis of the deposited data

How the results depend on the processing

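Depth was 22621338 to 26130882 reads per sample, and members with a few reads (ITGA8, ITGA9, ITGA10, ITGB6 and ITGB7) could not be compared. The alternatives gave 479 values for the 32 members tested, of which 439 kept their direction and side of the threshold, 28 lost the call, 1 gained it and 11, all of members that were not called, changed sign. Among 373 values of 25 other named genes, 356 kept both and 17 lost the call. The calls lost were those of CRK, ITGB5, PTK2, LIMS1, LIMS2, ITGB2, PXN and ITGA5. Without a variance trend 5 adaptors, 21 further focal adhesion genes and 6381 genes in all were called; the cause was not tested. With edgeR and TMM 6 alpha chains, 4 beta chains and 9 adaptors were called, with upper-quartile factors 6, 3 and 9, and with DESeq2 6, 3 and 8, with 17 ligands and 6985 genes in all. Leaving out 1 sample at a time, 6 alpha chains, 2 to 4 beta chains, 5 to 9 adaptors, 27 to 34 further focal adhesion genes, 18 to 22 ligands, 2 to 4 leukocyte and platelet alpha chains and 6568 to 7836 genes in all were called. The log2 ratio differences ranged from -1.74 to -1.66 for ITGA1 over ITGA2, 0.48 to 0.60 for ITGA5 over ITGAV, 0.78 to 0.83 for TNS1 over TNS3, -0.23 to -0.21 for PTK2 over PTK2B, 0.12 to 0.23 for PARVA over PARVB, 0.04 to 0.08 for LIMS1 over LIMS2, -0.06 to 0.16 for ITGA3 over ITGA6, 0.10 to 0.36 for ITGB3 over ITGB5 and -0.09 to 0.08 for FERMT1 over FERMT2. For 7 members that were not called, leaving out 1 sample at a time turned the sign, with ranges of -0.0016 to 0.14 for ITGA3, -0.025 to 0.059 for ITGA6, -0.029 to 0.15 for ITGAE, -0.025 to 0.19 for ITGB3, -0.11 to 0.16 for FERMT1, -0.020 to 0.080 for FERMT2 and -0.062 to 0.016 for TNS3. With upper-quartile factors TNS3 stood at 0.00078. Same-numbered samples did not deviate together (correlations -0.018, -0.018 and 0.0026), so the numbers were not taken to pair them; with the replicate number as a block, 6 alpha chains, 4 beta chains, 8 adaptors and 7349 genes were called, and CRK was the only member to lose its call (adjusted p = 0.0865).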
